A study of Mus musculus with 16 samples.

Results

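The signals of 7 genes known from mesothelial cells, Msln, Upk3b, Upk1b, Lrrn4, Wt1, Muc16 and Ezr, were followed in cultured mouse aortic smooth muscle cells. Not all of these genes are confined to mesothelial cells. They were taken by gene symbol from the platform annotation, which gave 12 of the 45101 probe sets on the array and 7 of the 14299 genes tested. The genes were chosen because of their difference between the genotypes, so that difference is described here and not tested. The cells were Hey2 knockout cells on 8 arrays and wild-type cells on 8 arrays, both of mixed C57BL/6 and 129SvJ background. They had been minced and digested from aortas freed of adventitia, were passaged in culture and starved of serum, and then received human PDGF-BB at 5 ng per ml. RNA was taken at 0, 15, 30, 60, 120, 180, 240 and 480 min, with 1 array for each genotype at each time. No label gives the number of mice or isolates behind the cultures, so isolate and genotype cannot be told apart. Within a genotype the 8 arrays are different times rather than repeats.

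Mesothelial cells form the flat epithelial sheet that covers the heart, lungs, gut and the walls of the body cavities. They arise from mesoderm, carry microvilli and a mucin-rich surface, and keep expressing Wt1, a zinc finger transcription factor also known from the epicardium and from kidney podocytes. Hey2 is a transcriptional repressor that acts downstream of Notch receptors and is known from the developing heart and arteries. PDGF-BB is a growth factor that drives smooth muscle cells to divide and migrate.

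Values are MAS5 signals after quantile normalization, which gives all arrays the same distribution of values, and differences are on the scale log2(signal + 4.856), knockout minus wild type at the same time unless stated otherwise. This offset makes the differences of dim genes smaller than they are. A signal of 16, the 40th percentile of all values, served as the filter. Levels on different probe sets are not comparable, because probes differ in how brightly they bind. All 12 probe sets passed the filter, which asks for a signal over 16 on 3 or more arrays. Each would pass it on the wild-type arrays alone. Of the 8 wild-type arrays, 7 exceeded a signal of 16 for Wt1 and 6 for Muc16, and all 8 did for the other probe sets.

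Some facts of the whole series touch these values. The arrays labelled wild type 60 and 480 min were out of time order: the first resembled the knockout array at 480 min (r = 0.571 across genes, against -0.327 with the knockout array at 60 min) and the second the knockout array at 60 min (r = 0.456, against -0.375 with that at 480 min). The labels were kept, and results that these arrays touch are repeated with both genotypes' arrays at 60 and 480 min removed. Hey2 itself, on its only probe set, ran from 23.3 to 63.3 in the knockout and from 14.04 to 113.3 in the wild type. At 0, 15 and 30 min it was 101, 102 and 113 in the wild type and 34.3, 63.3 and 42.2 in the knockout. From 60 to 240 min it was 14.04 to 19.3 in the wild type and 23.3 to 41.0 in the knockout. At 480 min it was 75.2 in the wild type and 31.6 in the knockout. The sources used here do not place that probe set against the deletion, so it does not check the genotype. Of the smooth muscle markers, Acta2 ran from 5203 to 6660 in knockout arrays and from 8217 to 9638 in wild-type arrays, whereas Myh11 stayed between 3.89 and 12.6 in the knockout, under the filter on all 8 arrays, and between 21.3 and 39.0 in the wild type. Fewer cells of a type and less RNA per cell cannot be told apart in such bulk samples.

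Promoter windows of 300 bases, 250 before and 50 after the start site, were found for 4 of the 7 genes, Upk3b, Lrrn4, Muc16 and Ezr, in a RefSeq table of mouse build GRCm38.p6. Those of Upk3b and Lrrn4 are shown because these genes had the closest pair of profiles over the 16 arrays, and that of Ezr because it holds many more CpG dinucleotides than they do and its gene was also far above the filter signal in wild-type cells. They lie at chr5:136038246-136038545 on the plus strand for Upk3b, at chr2:132880813-132881112 on the minus strand for Lrrn4 and at chr17:6782731-6783030 on the minus strand for Ezr. Capitals mark GGAATG, the site of Tead factors, which in Upk3b reads as its reverse complement.
Upk3b: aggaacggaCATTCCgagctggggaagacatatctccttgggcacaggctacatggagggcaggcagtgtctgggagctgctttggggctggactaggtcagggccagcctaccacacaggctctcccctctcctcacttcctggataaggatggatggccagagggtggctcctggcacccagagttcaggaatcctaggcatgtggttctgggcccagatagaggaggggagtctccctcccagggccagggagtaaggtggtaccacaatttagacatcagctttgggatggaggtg
Lrrn4: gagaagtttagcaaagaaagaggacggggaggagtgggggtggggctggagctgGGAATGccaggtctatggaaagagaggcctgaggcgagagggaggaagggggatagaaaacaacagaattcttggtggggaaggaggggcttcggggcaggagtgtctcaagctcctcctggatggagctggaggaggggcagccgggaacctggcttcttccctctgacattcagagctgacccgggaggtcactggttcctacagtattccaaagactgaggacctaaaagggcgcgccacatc
Ezr: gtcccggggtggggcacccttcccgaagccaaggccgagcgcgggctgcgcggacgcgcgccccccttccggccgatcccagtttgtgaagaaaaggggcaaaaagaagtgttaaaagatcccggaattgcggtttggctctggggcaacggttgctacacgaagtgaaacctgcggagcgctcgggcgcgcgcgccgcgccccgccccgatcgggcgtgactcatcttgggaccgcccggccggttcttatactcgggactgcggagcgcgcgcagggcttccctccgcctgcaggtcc
The capitals begin 241 bases before the start site in Upk3b and 196 bases before it in Lrrn4.

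GGAATG was present in 2 of the 4 windows, and 14.7% of all 32851 promoters of the table hold it on one strand or the other. The other motifs searched, on both strands, were the E-box CACGTG (7.15% of all promoters) and CACGCG (9.27%), both bound by Hey and Hes proteins, the Wt1 and Egr site GCGGGGGCG (2.91%), the Wt1 site GCGTGGGNG (1.9%) and the TATA box TATAAA (13.6%). None of these letters occurred in the 4 windows, and no match overlapped another. The Ezr window held 38 CpG dinucleotides and was 68.0% G or C, against 2 and 58.7% in Upk3b, 7 and 58.0% in Lrrn4 and 1 and 46.7% in Muc16. The median promoter of the table held 7 CpG and was 52.7% G or C. A match is a description of the letters and not evidence of binding.

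All 7 genes were higher in the knockout than in the wild type at all 8 times, on the probe set that represents the gene. That is the one with the highest mean log2 value over the 16 arrays, called its brightest here. On 11 of the 12 probe sets every knockout array lay above every wild-type array. Among all genes tested 5.38% had all 8 knockout arrays above all 8 wild-type arrays, and 3.08% had all of them below. By limma 30.6% were called in either direction, 16.5% higher in the knockout. Because the genes were chosen on this contrast, nothing is read from these shares.

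**Figure D1:**
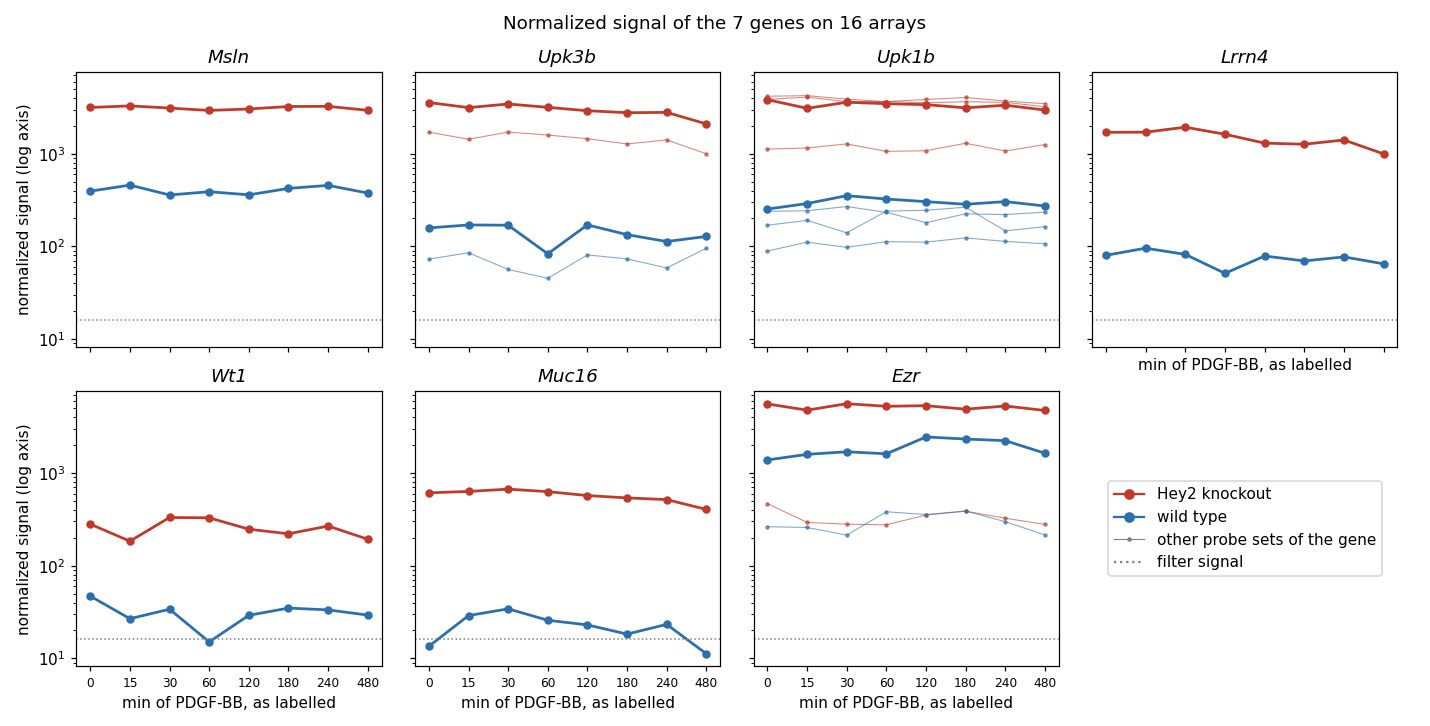
Normalized signal (log axis) of the 7 genes against the labelled time of PDGF-BB in min, 1 point per array, knockout in red and wild type in blue. Thick lines are the probe set of a gene with the highest mean log2 value, thin lines its other probe sets and the dotted line is the filter signal of 16. The red and blue thick lines do not meet in any panel, and thin red and blue lines cross only for Ezr.

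Msln encodes mesothelin, a surface protein held by a lipid anchor. Its signal (probe set 1460238_at) in the knockout was 3156 at 0 min, 3283 at 15 min, 3112 at 30 min, 2931 at 60 min, 3041 at 120 min, 3233 at 180 min, 3248 at 240 min and 2939 at 480 min. In the wild type it was 394, 458, 359, 389, 360.0, 422, 455 and 376 at the same times. Every wild-type array was thus well above the filter signal, and every knockout array was far above every wild-type one. The difference averaged 2.95 ± 0.10 (SD over 8 times), a 7.70-fold ratio, and ran only from 2.82 to 3.10.

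Muc16 encodes the large membrane mucin known as the tumour antigen CA125, which binds mesothelin. Its signal (1432358_at) in the knockout was 611, 633, 670.2 and 629.9 from 0 to 60 min, and 571, 539, 517 and 405 from 120 to 480 min. In the wild type it was 13.5, 28.9, 34.2, 25.8, 22.9, 18.3, 23.2 and 11.2 from 0 to 480 min. The wild-type arrays at 0 and 480 min were below the filter signal and the others not far above it, so the size of the gain rests on the offset. The difference averaged 4.45 ± 0.31 (SD over 8 times), and 4.64 with an offset 3 times smaller or 4.01 with one 3 times larger.

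The uroplakins Upk3b and Upk1b belong to a family of membrane proteins first known from the plaques of the bladder lining. Upk3b is a protein with one membrane span that is known from mesothelial cells, and on its brighter probe set (1454881_s_at) the knockout had 3567, 3146, 3442, 3167, 2910.4, 2773, 2793 and 2097 from 0 to 480 min. The wild type had 158, 170.3, 169, 83.1, 171, 134, 113 and 128 on that probe set. The knockout arrays decline along the series and the lowest is at 480 min, while the lowest wild-type array is the one labelled 60 min. The difference averaged 4.38 ± 0.38, a 20.8-fold ratio, and it was 4.27 ± 0.53 on the second probe set (1434237_at; SD over 8 times in both cases).

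Upk1b is a tetraspanin, a protein with several membrane spans that pairs with other uroplakins. The probe set that represents it (1457065_at) had the highest mean log2 value of 4, although 1435831_at and 1455464_x_at were brighter in the knockout, with medians of 3865 and 3647 against 3361. It gave 3827, 3091, 3594, 3467, 3384, 3129.6, 3338 and 2962 in the knockout from 0 to 480 min. The wild type gave 253, 289.9, 353, 324, 304, 285, 304 and 273. Neither series has a trend that stands out from the scatter of neighbouring times, and the groups are far apart. The difference averaged 3.47 ± 0.18, an 11.1-fold ratio, but the other 3 probe sets of the gene gave 5.11 ± 0.19 (1435831_at), 4.23 ± 0.35 (1455464_x_at) and 2.32 ± 0.15 (1439760_x_at; SD over 8 times). The 4 probe sets agree on the direction at every time and differ in size by more than their spread over time, and the choice by mean log2 takes 3.47 where the probe set brightest in the knockout gives 5.11, so the size of the Upk1b gain is not settled by these arrays.

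Lrrn4 encodes a membrane protein with leucine-rich repeats that is used as a mesothelial marker. In the knockout its signal (1435648_at) was 1702, 1709.7, 1933, 1621, 1301, 1266, 1407 and 996 from 0 to 480 min. In the wild type it was 80.1, 95.6, 81.8, 51.1, 78.7, 69.6, 76.9 and 64.8. The knockout values fall into a brighter set up to 60 min and a dimmer one from 120 min on, with no overlap between them. The difference averaged 4.22 ± 0.33 (SD over 8 times), an 18.7-fold ratio.

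Wt1 is the one transcription factor among the 7 genes. Its signal (1425995_s_at) in the knockout was 281, 184, 331, 329, 248, 221, 268 and 193 from 0 to 480 min. In the wild type it was 46.9, 26.8, 33.9, 15.0, 29.1, 34.9, 33.3 and 29.3, and the array labelled 60 min was the only one under the filter signal. The knockout arrays scatter without order in time, and the lowest of them is still above the highest wild-type array. The difference averaged 2.87 ± 0.53 (SD over 8 times), and 2.73 ± 0.26 over the 6 times without 60 and 480 min. At 60 min alone it was 4.07.

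Ezr encodes ezrin, which ties membrane proteins to actin filaments in microvilli. It was the member with the smallest gain. On its brighter probe set (1450850_at) the knockout had 5569, 4773, 5605, 5254, 5333, 4888, 5289.9 and 4738 from 0 to 480 min. The wild type had 1385, 1591, 1697, 1612, 2453, 2328, 2236 and 1636. The knockout stayed within a narrow band, while the wild-type arrays at 120, 180 and 240 min were brighter than all other wild-type arrays. The difference averaged 1.50 ± 0.33 (SD over 8 times), a 2.82-fold ratio.

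The second probe set of Ezr (1456725_x_at) did not show the genotype difference. It ran from 276 to 467 in the knockout, with a median of 309, and from 214 to 389 in the wild type, with a median of 281. The knockout was higher at 5 of 8 times, the groups overlapped, and the difference averaged 0.17 ± 0.37. The statements on Ezr as a gene therefore rest on one of its 2 probe sets.

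**Figure D2:**
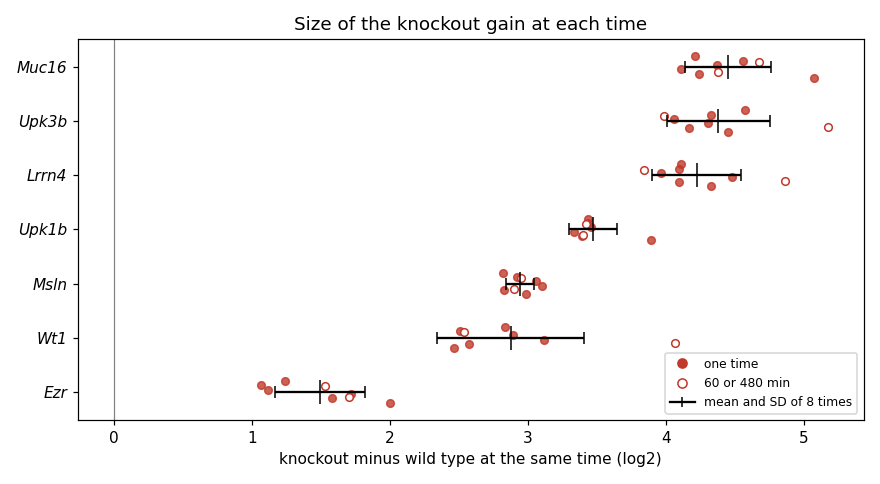
Knockout minus wild-type difference of each gene on its brightest probe set (log2), 1 point per time, with open points for 60 and 480 min and a bar for the mean and SD of 8 times. Muc16, Upk3b and Lrrn4 have overlapping bars around 4.45, 4.38 and 4.22, Upk1b stands at 3.47, Msln and Wt1 overlap at 2.95 and 2.87, and Ezr is lowest at 1.50.

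In order of the gain, Muc16, Upk3b and Lrrn4 came first and did not differ from each other beyond their spread over time. Msln and Wt1, at 2.95 and 2.87, did not differ beyond the spread of Wt1 either. The place of Upk1b among them depends on which of its 4 probe sets is taken. With the scaling as deposited, the differences of Msln, Upk1b, Lrrn4 and Ezr were 3.30, 3.82, 4.55 and 1.84, each larger than under quantile normalization by more than 1 SD over the times. That scaling placed the median of all genes at 0.28, against -0.02 under quantile normalization, so the members' values relative to that median moved by less.

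Stability over time was measured as the SD of the log2 values over the 8 arrays of a genotype. The knockout SD was 0.06 for Msln, 0.10 for Ezr and 0.12 for Upk1b, against a median of 0.31 over all genes tested. It was 0.23 for Muc16, 0.24 for Upk3b, 0.31 for Lrrn4 and 0.32 for Wt1. By mean knockout level Msln, Ezr and Upk1b stood at the 96.0, 98.7 and 96.5 percentiles of all genes tested. Upk3b stood at 95.6, Lrrn4 at 88.6, Muc16 at 72.4 and Wt1 at 55.2. The median SD thus includes many dimmer genes, and the SDs were not compared among genes of like signal. In the wild type the SD was 0.14 for Msln, 0.15 for Upk1b and 0.25 for Lrrn4, and 0.31 for Ezr, 0.35 for Upk3b, 0.39 for Wt1 and 0.44 for Muc16, against a median of 0.39. Each SD holds any change with time as well as the scatter of single arrays, and the SDs were not tested between genotypes. Because the members were chosen with earlier results of these data known, nothing is read from their place against the medians.

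Did the 7 genes move with PDGF-BB? The mean of the 120, 180 and 240 min arrays was set against that of the 0, 15 and 30 min arrays in both genotypes together. RNA quality was read from the brightness at the tail of the Actb transcript divided by that at its front. This quotient was 1.95 to 3.71 at 0 to 30 min and 1.54 to 2.44 at 120 to 240 min in the knockout. In the wild type it was 2.41 to 3.88 early and 1.53 to 1.84 late. For Gapdh it was 3.19 to 5.65 early and 2.44 to 4.64 late in the knockout. Its wild-type ranges were 3.22 to 4.49 and 2.59 to 3.21. Whether RNA quality affected the changes below was not tested. By limma, 0 of the 7 genes were called, and 29.2% of all genes tested were called (17.8% lower late and 11.5% higher late). An unadjusted p under 0.05 was found for 2 of the 7 genes and for 5883 of all 14299 genes. Lrrn4 changed by -0.30 (SE 0.13, limma adjusted p = 0.114), Ezr by 0.28 (SE 0.12, adjusted p = 0.101) and Upk3b by -0.26 (SE 0.14, adjusted p = 0.192). Muc16 changed by -0.19, Wt1 by -0.09, Upk1b by -0.04 and Msln by 0.01, with adjusted p-values from 0.345 to 0.909. The median of all genes was -0.06. The members were chosen with earlier results of these data known, so the counts over them are a description and no independent support.

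Without the 60 and 480 min arrays the estimates of this contrast stay the same by construction, and the residual spread shrinks. Then 2 of the 7 genes were called, both lower late: Lrrn4 (SE 0.09, limma adjusted p = 0.014) and Upk3b (SE 0.08, adjusted p = 0.0173). Of all genes 47.2% were called in that fit, and 7 genes are too few to read a difference in share from. Leaving out the 60 min arrays alone also brought both under the threshold (adjusted p = 0.039 for Lrrn4 and 0.0491 for Upk3b). On the second probe set of Upk3b the change was -0.12 (SE 0.19, adjusted p = 0.696 in the fit of all tested probe sets, which called 25.6% of them).

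**Figure D3:**
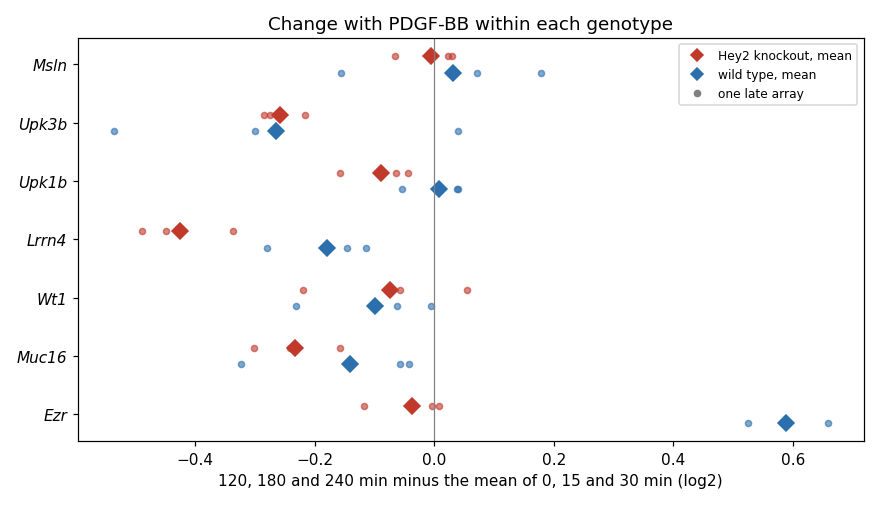
Log2 value at 120, 180 and 240 min minus the mean of 0, 15 and 30 min for each gene on its brightest probe set, small points for single arrays and diamonds for the mean of 3, knockout in red above wild type in blue. Ezr stands apart with 0.59 in the wild type and -0.04 in the knockout, and Lrrn4 has the lowest knockout mean at -0.42.

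Within the genotypes, Lrrn4 changed by -0.42 in the knockout and by -0.18 in the wild type, and Upk3b by -0.26 and by -0.27. Muc16 changed by -0.23 in the knockout and by -0.14 in the wild type. All 3 had their lowest knockout signal at 480 min, at 58.5% of the 0 min signal for Lrrn4, 58.8% for Upk3b and 66.2% for Muc16. Msln at that time was at 93.1%, Ezr at 85.1%, Upk1b at 77.4% and Wt1 at 68.8%. In 5 of the 7 genes the lowest knockout array was the one at 480 min, and in 3, Upk3b, Lrrn4 and Wt1, the lowest wild-type array was the one labelled 60 min. These are the 2 arrays whose profiles resembled each other across all genes.

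Of the 7 genes, Ezr had the largest estimated change of the gain with time. At 120 to 240 min its log2 value was 12.34 ± 0.07 in the knockout and 11.19 ± 0.07 in the wild type, and at 0 to 30 min it was 12.37 ± 0.13 in the knockout and 10.60 ± 0.15 in the wild type (SD over 3 times). The gain of the knockout was thus between 1.07 and 1.24 at 120 to 240 min and 1.58 or more at 0 to 30 min, with no overlap. In the test of that difference over all 16 arrays, in which 60 min counted as early and 480 min as late, the late gain minus the early one was -0.51 (SE 0.14), which was not called (limma adjusted p = 0.359). Without the 60 and 480 min arrays the difference was -0.63 (SE 0.11, adjusted p = 0.00531), so the call depends on those arrays. On the second probe set of Ezr it was -0.11 (SE 0.26, adjusted p = 0.934 in the fit of all tested probe sets, which called 0.00382% of them), and -0.43 without those arrays (SE 0.19, adjusted p = 0.294).

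By the same limma test 0 of the 7 genes were called over all 16 arrays, where 0.014% of all genes tested were called. An unadjusted p under 0.05 was found for 1 of the 7 genes and for 1174 of all 14299 genes. These counts are a description as well. Without the 60 and 480 min arrays 1 of the 7, Ezr, was called and 4.26% of all genes were. For the other members the change of the gain over all arrays was -0.44 for Lrrn4 (SE 0.20, adjusted p = 0.609), -0.36 for Wt1, -0.29 for Upk3b, -0.07 for Upk1b, -0.01 for Msln and 0.01 for Muc16. Those of Wt1, Upk3b and Muc16 had the other sign without the 60 and 480 min arrays.

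Relatives of the 7 genes were measured on the same arrays. Of the other uroplakins, which build the plaques of the bladder lining, Upk2 was lower in the knockout, with 4.54 to 20.5 (median 7.18) in the knockout and 13.8 to 54.3 (median 33.1) in the wild type. Its difference was -1.52 (SE 0.23, limma adjusted p = 6.0e-04), a size that rests on the offset because the knockout median was under the filter signal. Upk1a was lower by a difference of -0.78 (SE 0.24, adjusted p = 0.0295), and Upk3a did not pass the filter. For comparison, 14.1% of all genes were called lower in the knockout.

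Of 5 other membrane mucins, Muc13 (0.23, SE 0.33) and Muc20 (-0.49, SE 0.25) were tested and not called. Muc1, Muc4 and Muc15 did not pass the filter. Nor did Lrrn1, Lrrn2 and Lrrn3, the relatives of Lrrn4. Among tetraspanins related in structure to Upk1b, Tspan8 (1.22, SE 0.10), Cd82 (0.60) and Cd151 (0.24) were higher in the knockout, Cd9 was lower (-0.57, SE 0.08) and Cd81 was not called (0.05), while Tspan1 did not pass the filter.

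Ezrin acts with radixin and moesin, its closest relatives, and with scaffold and surface partners. Of 9 tested relatives and partners 2 were higher in the knockout, 3 lower and 4 not called, where 16.5% of all genes were called higher and 14.1% lower, so the count higher is near that of all genes. Slc9a3r1, the scaffold NHERF1 that joins ezrin to membrane proteins, ran from 2875 to 5663 in the knockout (median 4328) and from 839 to 1533 in the wild type (median 1228), with a difference of 1.86 (SE 0.12, limma adjusted p = 1.55e-06). It was the only one of the 9 whose arrays did not overlap between genotypes. Among all genes tested 5.38% had all knockout arrays above all wild-type arrays. Nf2, the tumour suppressor merlin, which shares the ezrin fold, differed by 0.51 (SE 0.08).

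Rdx, radixin, and Msn, moesin, differed by 0.15 (SE 0.08) and 0.25 (SE 0.10) and were not called, although Msn was called without the 60 and 480 min arrays (adjusted p = 0.00989). The second scaffold of this kind, Slc9a3r2, was lower by a difference of -0.40, as were the surface proteins Podxl, podocalyxin, at -0.94 and Icam1, an adhesion molecule for leukocytes, at -1.24. Cd44, a hyaluronan receptor, was not called over all arrays (-0.71, SE 0.32, adjusted p = 0.124) and was called without the 60 and 480 min arrays (adjusted p = 1.7e-05). Spn, a surface sialoprotein, was not called (0.04), and Icam2 did not pass the filter.

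Other genes known from mesothelial cells were mostly higher in the knockout as well. Of 24 such genes 22 were tested, and 15 were higher, 2 lower and 5 not called. The median difference was 0.85, against -0.02 over all genes tested, of which 16.5% were called higher. The list was compiled with earlier results of these data known, so its count is a description and no independent support. With 60 and 480 min removed, 16 were called higher and 2 lower, where 21.5% of all genes were called higher.

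**Figure D4:**
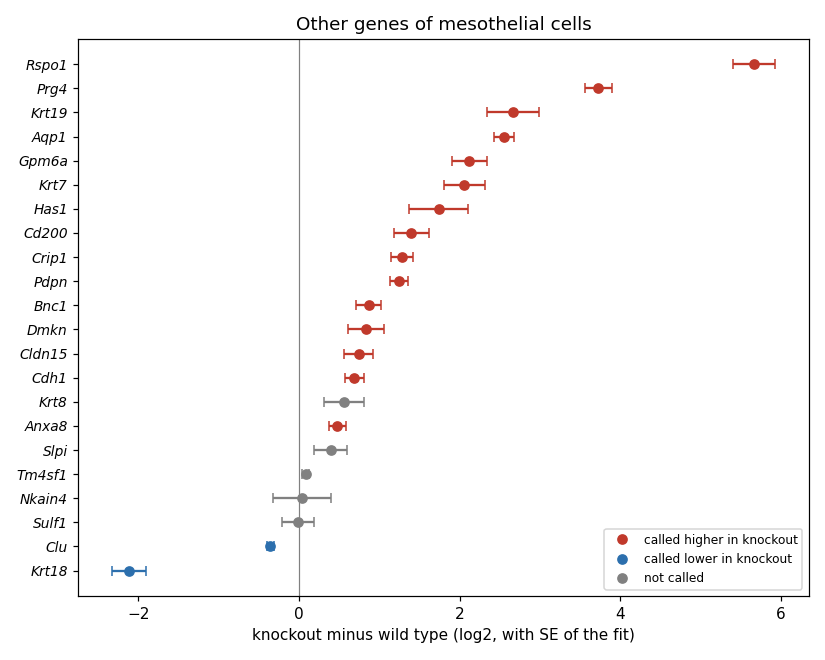
Knockout minus wild-type difference (log2) of the 22 tested genes of the mesothelial list, with the SE of the limma fit as bars. Red points were called higher in the knockout, blue ones lower and grey ones not called. Rspo1 at 5.66 and Prg4 at 3.72 lead the list, and Krt18 stands at the other end at -2.12.

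Rspo1, a secreted activator of Wnt signalling, ran from 267 to 831 in the knockout and from 2.09 to 22.0 in the wild type, where the median of 4.98 was under the filter signal, so its difference of 5.66 rests on the offset. Prg4, the joint lubricant lubricin, ran from 246 to 586 in the knockout and from 19.9 to 52.4 in the wild type (3.72, SE 0.17, limma adjusted p = 8.74e-08). Aqp1, a water channel, ran from 1681 to 2576 in the knockout and from 280 to 482 in the wild type (2.55, SE 0.13). Gpm6a, a neuronal and mesothelial surface glycoprotein, differed by 2.12 (SE 0.22) and Pdpn, podoplanin, by 1.24 (SE 0.12). All 5 had no overlap between the genotypes. Of the 22 tested genes of the list, 10 had no overlap with the knockout higher and 2 with the knockout lower. Among all genes tested these shares were 5.38% and 3.08%. Because of how the list was compiled, these counts are a description as well.

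The keratins, filament proteins of epithelia, did not move as one. Krt19 (2.66, SE 0.33) and Krt7 (2.06, SE 0.25) were higher in the knockout. Krt18 was lower (-2.12, SE 0.21, limma adjusted p = 3.40e-05), with 6.22 to 52.6 in the knockout and 56.7 to 351 in the wild type. Its usual partner Krt8 was not called over all arrays (0.56, SE 0.25, adjusted p = 0.122) but was called higher without the 60 and 480 min arrays (adjusted p = 0.0117).

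Has1, a hyaluronan synthase, was higher by a difference of 1.74 (SE 0.37), Cd200, a surface ligand that restrains myeloid cells, by 1.40, and Crip1, a small LIM protein, by 1.28. Bnc1, a zinc finger protein of mesothelial and germ cells, differed by 0.87, Dmkn by 0.84, the tight junction protein Cldn15 by 0.74, E-cadherin Cdh1 by 0.69 and the annexin Anxa8 by 0.48. Clu, clusterin, was lower (-0.36, SE 0.05). Slpi (0.39), Tm4sf1 (0.08), Nkain4 (0.04) and Sulf1 (-0.02) were not called, Calb2, calretinin, did not pass the filter with medians of 3.97 in the knockout and 4.00 in the wild type, and C3 had no probe set with that symbol alone.

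Wt1 is also known from the epicardium, the mesothelial covering of the heart. Of 10 tested epicardial genes 2 were higher in the knockout and none lower by limma, near the 16.5% of all genes called higher. They were Bnc2, a relative of Bnc1, by a difference of 2.75 (SE 0.29) and Aldh1a2, an enzyme of retinoic acid synthesis, by 1.25 (SE 0.11). The transcription factors Tbx18 (0.11), Tcf21 (-0.05), Gata4 (0.20), Gata6 (0.48), Scx (0.28) and Hand2 (0.14) were not called, nor were Sema3d (-0.44) and Tgm2 (-0.03). Without the 60 and 480 min arrays Gata6 was called higher and Sema3d lower (adjusted p = 0.00628 and 0.00243).

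Of 16 tested genes known as partners or targets of Wt1, 1 was higher in the knockout, 11 were lower and 4 were not called. Podxl, one of the 11, is also among the ezrin partners above. Basp1, a corepressor that binds Wt1, was the one that was higher (0.44, SE 0.12). Igf2, a growth factor gene, ran from 94.4 to 122 in the knockout and from 357 to 696 in the wild type, a difference of -2.24 (SE 0.12, limma adjusted p = 3.66e-07). Whether Wt1 has a part in any of these differences was not tested. Sox9 (-1.76, SE 0.15), nestin Nes (-1.53, SE 0.37) and the integrin Itga4 (-0.96, SE 0.25) were among those lower. The median of the list was -0.43, and 14.1% of all genes were called lower.

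Markers of other cell types moved as follows, and their part in the values above was not tested. Of all genes 16.5% were called higher in the knockout and 14.1% lower, and 21.5% and 20.8% without the 60 and 480 min arrays. Of 7 tested genes of other epithelia 3 were higher in the knockout, Krt14 (4.30, with a wild-type median of 5.41 under the filter signal), Epcam (0.87) and Cdh1, which is also on the mesothelial list, and Cldn4, Cldn7 and Esrp1 did not pass the filter. Without the 60 and 480 min arrays 2 were higher, since Epcam was no longer called (adjusted p = 0.0531). The summed signal of the tested genes of this list ran from 1208 to 2040 in the knockout and from 751 to 954 in the wild type. Of 10 fibroblast genes 5 were higher, led by Thy1 (3.12, with a wild-type median of 13.9), and 1 was lower, Lum (-3.11), with sums of 11536 to 17461 in the knockout and 10970 to 19082 in the wild type, and 5 were higher and 2 lower without those arrays. Of 11 contractile smooth muscle genes 8 were lower and 0 higher by limma, with sums of 13208 to 16302 in the knockout and 20240 to 24608 in the wild type, and 9 were lower without those arrays. Most of the fibroblast sums came from Gsn, Dcn and Col14a1, and most of the contractile sums from Acta2 and Cald1.

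The endothelial genes Pecam1, Cdh5 and Vwf and the leukocyte gene Ptprc did not pass the filter, with medians from 2.13 to 9.73 in the knockout and from 3.13 to 11.7 in the wild type. Of 5 tested endothelial genes 2 were lower in the knockout, with sums of 136 to 199 in the knockout and 421 to 508 in the wild type. Most of these sums came from Eng, a receptor of the TGF-beta family, with 74.5 to 127 in the knockout and 348 to 421 in the wild type, and Cldn5, the other gene, was not called without the 60 and 480 min arrays (adjusted p = 0.157). Of 6 tested leukocyte genes 1 was higher, with sums of 766 to 1371 in the knockout and 495 to 912 in the wild type. Most of these sums came from Cd14 and Csf1r, and with 60 and 480 min removed 2 genes were called higher and 1 lower. The summed signal of the 7 members, which were chosen for this difference, ran from 14331 to 18713 in the knockout and from 2331 to 3418 in the wild type. Most of the wild-type sum came from Ezr on its brighter probe set. It ran from 4738 to 5605 in the knockout and from 1385 to 2453 in the wild type.

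The genes whose profiles over the 16 arrays were most like those of the members were found by the root mean square distance between log2 values centred on each gene's own mean. Since the members differ so much between genotypes, this measure mostly finds genes with a similar genotype difference. The other members and genes with provisional names, such as those with Rik, Gm or LOC, were left out of this search. For Msln they were Prss12 (0.26), Srgn (0.27) and Lgals2 (0.28). For Wt1 they were Gsta3 (0.27), Prss12 (0.27) and Srgn (0.30). Upk3b was nearest to Ripk4 (0.29), Mbnl3 (0.32) and Cntn2 (0.36), and Lrrn4 to Ripk4 (0.27), Mbnl3 (0.29) and Angptl7 (0.36).

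Muc16 was nearest to Car9 (0.41), Ripk4 (0.43) and Celsr1 (0.45), Upk1b to Fxyd3 (0.22), Myo5b (0.31) and Chchd10 (0.33), and Ezr to Cystm1 (0.10), Map7 (0.17) and Sfmbt1 (0.18). The mean wild-type log2 values were 2.84 for Ripk4, 2.90 for Srgn, 3.20 for Celsr1 and 3.54 for Angptl7. These lie below the log2 value of the filter signal, so the differences of these neighbours, and with them their distances, rest on the offset. Among the members, Upk3b and Lrrn4 were nearest to each other (0.16), nearer than to any gene outside the 7 that was searched. The next pairs were Msln with Upk1b (0.32) and Lrrn4 with Muc16 (0.33), and the largest distance was that between Muc16 and Ezr (1.52). All distances and neighbours of Upk1b rest on 1457065_at. Its other probe sets gave genotype differences from 2.32 to 5.11, and their distances were not computed.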

How the data were processed

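RNA was measured on 16 Affymetrix mouse arrays. The deposited values are linear signal intensities of probe sets that the authors computed with MAS5, according to the submitters' processing notes; its settings are not stated there. Array brightness differed: the trimmed mean intensity ran from 80.99 to 342.5. The arrays were quantile normalized and log2 taken of the signal plus 4.856, the 20th percentile. Testing required a signal over 16 (40th percentile) on 3 or more arrays, and a gene was its tested probe set with 1 symbol and the highest mean log2 value.

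Models of genotype plus time as a factor (7 residual degrees of freedom; 6 with the interaction) were fitted in limma 3.58.1 (R 4.3.3) with an intensity trend. The threshold was a Benjamini-Hochberg adjusted p of 0.05 over all genes. The fits were tested on simulated data. The number of arrays limits the precision. Arrays of the 2 genotypes were paired by time, from the titles. Named genes were all members, all tested genes of 5 lists of relatives and mesothelial genes, up to 4 of each further list, and 3 nearest profiles per member; further genes of those lists were named after their values were seen. The members and lists were chosen with earlier results of these data known. The alternatives tried changed the scaling, offset, filter, probe sets, variance trend, block, baseline, interaction shape or times used.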

Additional observations from a re-analysis of the deposited data

Results flagged for a closer look

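One value of the 7 genes stood far from the others of its genotype. The Upk3b signal on probe set 1454881_s_at in the knockout array at 480 min was 2097, and its gap to the next lowest knockout array was 0.526 of the whole knockout range on the log2 scale, just above the value that 8 arrays exceed by chance in about 1 of 20 groups. It was the only value flagged in the 24 groups of 8 arrays examined, and groups from probe sets of the same gene are not independent. The knockout array at 480 min was also the lowest on the second probe set of Upk3b (998) and for Lrrn4 (996). The cause was not tested. The 8 arrays are different times of PDGF-BB treatment.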

How the results depend on the processing

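On the probe set that represents the gene, all 7 genes kept a higher level in the knockout under every alternative run. The genes were chosen on this contrast and the alternatives reuse the same arrays, so this is no independent support. The statement does not cover the second probe set of Ezr, with a difference of 0.17. The genotype comparison called 4381 genes, and 3628 without the block that pairs arrays by time, 2141 with the deposited scaling (87.9% of them higher), 7308 with all probe sets and 3574 to 4913 with one time left out. The mesothelial genes called lower were 2, and 1 with the deposited scaling. The late minus early comparison called 4182 genes, and 1107 with the deposited scaling (79.4% higher), 6714 with all probe sets, 6568 without 60 and 480 min, 1549 with 0 min as the only baseline and 2553 to 5475 with one time left out, lowest without 240 min. The change of the gain was called for 2 genes, 6 with the deposited scaling, 592 without 60 and 480 min, 7 with 60 min left out (1 to 7 over single times left out) and 1 with a trimmed mean, a larger offset, all probe sets, no trend or a spline in time. Lrrn4 was also called lower late with a trimmed mean (-0.40, limma adjusted p = 0.0447). Small changes turned their sign. Late minus early, the deposited scaling gave 0.24 for Upk1b, 0.063 for Wt1 and 0.040 for Muc16, against a median of all genes of 0.15, and the 0 min baseline gave 0.0046 for Upk1b and 0.17 for Muc16. With one time left out these changes ran from -0.29 to 0.038 for Wt1, -0.035 to 0.076 for Msln and -0.091 to 0.033 for Upk1b. The change of the gain was 0.18 for Msln and 0.15 for Upk1b with the deposited scaling (median of all genes 0.14), and 0.054 and 0.028 with a trimmed mean. For Muc16 it was -0.077 with the larger offset, -0.092 without 60 and 480 min, -0.061 with a spline and -0.019 with 60 min left out, and without 60 and 480 min it was 0.0070 for Upk3b and 0.026 for Wt1. With one time left out it ran from -0.13 to 0.062 for Upk1b, -0.11 to 0.21 for Muc16 and -0.056 to 0.035 for Msln. The causes were not tested. Signals near the filter, as for Wt1 and Muc16 in the wild type, limit the size of a difference.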

Other observations

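Some other mesothelial genes differed between early and late times of PDGF-BB, along which the RNA quality described above also differed. Of the 22 tested, 4 were called higher at 120 to 240 min than at 0 to 30 min by limma, 3 lower and 15 not called, a share near the 29.2% of all genes called. Those higher late were the hyaluronan synthase Has1 (2.72, adjusted p = 0.00148) and the keratins Krt19 (1.88), Krt8 (1.82) and Krt18 (1.75). Those lower late were Cd200 (-0.90), Cldn15 (-0.70) and Bnc1 (-0.65). Krt18 and Krt8 were thus both called higher late, and between the genotypes Krt18 was called lower in the knockout and Krt8 was not called. Whether these genes and the 7 members differ in this was not tested.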
